A study of Homo sapiens with 83 samples.

Results

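Splicing factors and spliceosome proteins were followed through 83 RNA-seq libraries of human neuroblastoma cells. The members were chosen by gene symbol: SRSF, HNRNP, SF3A and SF3B, SNRP, PRPF and LSM genes with a number or letter suffix, together with PRMT5, WDR77, U2AF1, U2AF2, PTBP1 and PTBP2, at a mean of at least 1 TPM (a transcript level divided by its length and scaled to a fixed total per library) in SHEP or SKNAS. Of 268 matching names, 180 were dropped as pseudogene names ending in P and digits and 4 as under 1 TPM, which left 84 members of the 60237 genes listed. They comprised 21 hnRNP proteins, 12 SR proteins, 11 LSM proteins, 10 PRPF proteins, 9 proteins of the U1 and U2 snRNPs and U2AF, 9 SF3A and SF3B proteins, 8 Sm proteins, PRMT5 with its partner WDR77, and both PTB proteins. All but SRSF12 passed the filter on low values in SHEP, and all 84 passed it in SKNAS.

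Both lines, SHEP and SKNAS, overexpress N-MYC-ER, in which N-MYC is joined to the hormone-binding part of the estrogen receptor. The fusion enters the nucleus when 4-hydroxytamoxifen (4OHT) is given. By the qPCR of the paper it was overexpressed more in SKNAS than in SHEP. In comparisons of the MYC effect between the lines, line and N-MYC-ER level therefore cannot be told apart. MYC-ON cells had received 4OHT and MYC-OFF cells its ethanol vehicle. Cells of every group received dexamethasone, which sets the circadian clock, so that circadian time (CT) counts the hours from it. The 4OHT or ethanol was given on the day before dexamethasone. A later CT is therefore also a longer time in culture and under 4OHT, and these cannot be told apart. RNA was collected every 4 h from CT24 to CT76, in 2 series of 14 time points per condition in SHEP (28 libraries per group) and in 1 series per condition in SKNAS (14 MYC-OFF libraries and 13 MYC-ON libraries, the latter ending at CT72). The fusion is present in the control cells too, so that each comparison is of active against inactive N-MYC-ER, and effects of 4OHT itself cannot be told apart from those of N-MYC.

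The spliceosome removes introns from pre-mRNA and is built from small nuclear ribonucleoproteins (snRNPs), each a U RNA held in a ring of Sm or LSM proteins with further proteins of its own. The methyltransferase PRMT5, with WDR77, adds methyl groups to arginines of Sm proteins before they are loaded on the RNA. SR proteins and hnRNP proteins bind the pre-mRNA and steer the choice of splice sites, and MYC proteins, which bind E-box DNA (CACGTG), are known to raise transcription of many genes of RNA processing.

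Promoter sequences (RefSeq, build GRCh38.p14) are shown for the methylosome pair, for 2 of the 3 members with the largest rise in SHEP MYC-ON, and for HNRNPM, which was chosen after its values had been seen because it carries an E-box and was higher early and lower late in MYC-ON. Each runs from 250 bases before the start of the transcript to 30 bases into it, on the strand of the gene, and capitals mark CACGTG. PRMT5 lies at chr14:22929347-22929626 (minus strand), WDR77 at chr1:111449227-111449506 (minus), SNRPF at chr12:95858702-95858981 (plus), LSM5 at chr7:32495254-32495533 (minus) and HNRNPM at chr19:8444725-8445004 (plus). LSM5 has another window, at chr7:32490351-32490630 (minus), which is not printed. On the strand of the gene it lies downstream of the printed one, and which start these cells use was not tested.
PRMT5: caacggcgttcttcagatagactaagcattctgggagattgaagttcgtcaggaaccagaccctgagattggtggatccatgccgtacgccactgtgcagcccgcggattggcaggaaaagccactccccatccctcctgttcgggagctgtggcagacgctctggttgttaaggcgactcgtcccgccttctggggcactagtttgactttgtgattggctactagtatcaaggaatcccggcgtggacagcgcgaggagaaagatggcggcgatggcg
WDR77: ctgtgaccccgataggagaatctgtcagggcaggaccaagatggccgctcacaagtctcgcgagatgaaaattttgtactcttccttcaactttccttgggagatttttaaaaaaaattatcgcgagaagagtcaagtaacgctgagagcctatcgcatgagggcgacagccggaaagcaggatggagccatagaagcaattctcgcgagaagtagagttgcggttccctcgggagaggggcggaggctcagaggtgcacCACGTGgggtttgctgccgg
SNRPF: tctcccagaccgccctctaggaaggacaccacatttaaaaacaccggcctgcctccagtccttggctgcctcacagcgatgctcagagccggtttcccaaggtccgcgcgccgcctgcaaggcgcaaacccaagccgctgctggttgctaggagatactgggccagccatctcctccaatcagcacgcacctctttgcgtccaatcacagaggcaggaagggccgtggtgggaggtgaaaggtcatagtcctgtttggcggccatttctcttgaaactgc
LSM5: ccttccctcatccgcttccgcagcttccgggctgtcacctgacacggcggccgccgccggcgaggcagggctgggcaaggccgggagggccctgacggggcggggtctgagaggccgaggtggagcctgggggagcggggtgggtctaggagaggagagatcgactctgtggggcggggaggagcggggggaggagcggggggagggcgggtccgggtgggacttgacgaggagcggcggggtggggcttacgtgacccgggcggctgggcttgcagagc
HNRNPM: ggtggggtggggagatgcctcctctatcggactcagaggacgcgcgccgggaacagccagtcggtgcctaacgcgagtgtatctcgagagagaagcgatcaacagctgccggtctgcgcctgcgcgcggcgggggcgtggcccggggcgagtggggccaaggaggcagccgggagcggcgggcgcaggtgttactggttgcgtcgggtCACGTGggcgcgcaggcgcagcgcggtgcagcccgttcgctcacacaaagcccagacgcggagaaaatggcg
In WDR77 the motif began at base 11 of the transcript, counting the start as base 1, and in HNRNPM 42 bases before the start. The windows of PRMT5 and SNRPF and both windows of LSM5 did not hold these letters. SNRPD1, the member with the largest rise in SHEP, is named only.

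Over windows from 250 bases before to 50 bases after each start, read for CACGTG (the same on both strands), 9 of the 74 members with a window held the motif. This was 12.2% of the members, against 8.77% of all genes with a window and 12.6% of the genes tested in SHEP. Beside WDR77 and HNRNPM these were HNRNPA3, HNRNPD, HNRNPDL, HNRNPH2, HNRNPH3, HNRNPUL1 and SF3B1. Of the members higher in SHEP MYC-ON, 6 of 49 held it (12.2%), and of the other members tested, 3 of 24 (12.5%). With so few genes, and 10 members without a window, a difference could not be shown either way. A match of letters is not a binding site.

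The libraries differed in ways that touch the comparisons. TPM sum to 1000000 in each library, so the depth of each is unknown, and a rise of some genes lowers others. The library median over genes of log2(TPM + 1) lay between 3.93 and 4.17 in SHEP, but between 2.97 and 4.38 in SKNAS MYC-OFF and between 2.76 and 4.26 in SKNAS MYC-ON. In SKNAS 4 of 14 libraries were under 3.8 when MYC was OFF, and 10 of 13 when it was ON. Of 12 adrenergic neuroblastoma markers 3 or 4 reached 1 TPM in SHEP and 7 or 8 in SKNAS, whereas 11 or 12 of 12 mesenchymal markers did so in every group. The markers moved with the condition. In SHEP the mesenchymal sum was 6570 to 8427 TPM in MYC-OFF and 4404 to 5616 TPM in MYC-ON, and the adrenergic sum 46.5 to 66.9 and 72.9 to 101.4 TPM. Single markers did not all follow the sums. In SHEP MYC-ON 2 of 4 adrenergic markers tested were higher and 1 lower, and 2 of 12 mesenchymal markers were higher and 8 lower. In SKNAS 7 of 8 adrenergic and 6 of 11 mesenchymal markers tested were lower in MYC-ON, and 1 of each was higher. Of 8 blood cell markers none reached a mean of 1 TPM in SHEP, and only PTPRC did in SKNAS, where it was lower in MYC-ON (-1.94, limma adjusted p = 0.000473). Their part in the changes of the splicing genes was not tested. In bulk RNA, a change in the share of cells that express a gene and a change of its level per cell cannot be told apart.

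The first comparison asked how active N-MYC changed the level of splicing genes in SHEP. Of 83 members tested with limma, 55 were higher in MYC-ON and 6 were lower, whereas 33.0% of all 14362 genes tested were higher and 38.9% lower (adjusted p at most 0.05 over all genes and a log2 change of at least 0.15). The median change of the members was 0.30 on the log2(TPM + 1) scale, and that of all genes was -0.04. Together the members made up 12200, 12850 and 14190 TPM (lowest, median and highest of 28 libraries) in MYC-OFF and 12930, 16970 and 19360 TPM in MYC-ON. The summed level was thus higher in most MYC-ON libraries, with an overlap through the 4 MYC-ON libraries of CT72 and CT76. Under every filter, scaling, pseudocount and choice of libraries tried on the full time range, 44 members were higher and 5 were lower. When each series mean was taken as 1 value, which leaves 2 against 2, 45 were higher and 5 lower. For these counts the shares of all genes are not given. The time points of a series come from 1 experiment, so p-values measure the spread between these samples, which is in part technical.

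**Figure D1:**
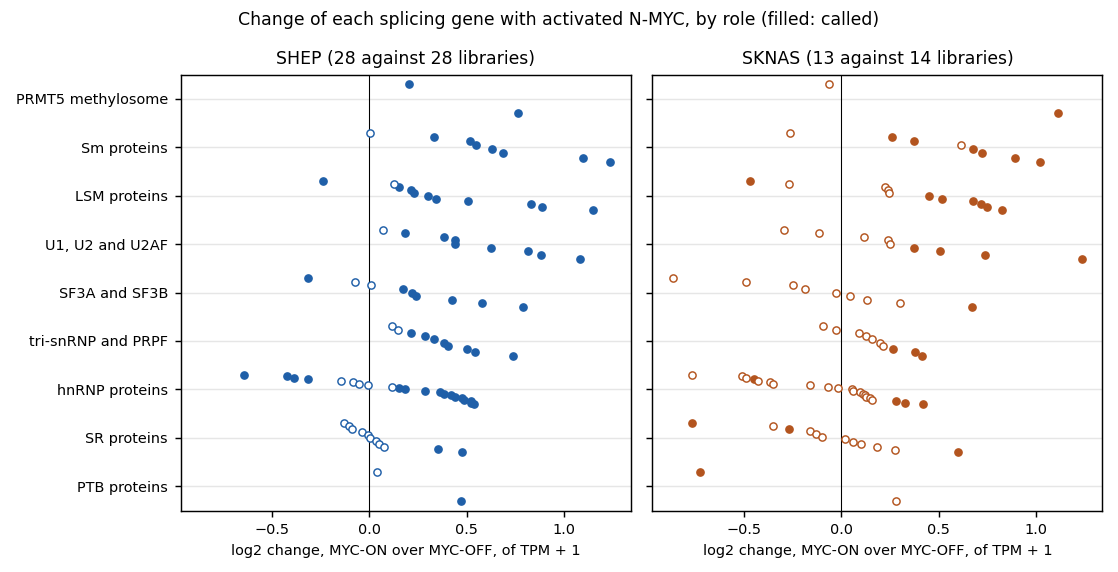
Each point is 1 splicing gene, placed by its log2 change of TPM + 1 in MYC-ON over MYC-OFF (x axis) and by its role (y axis), for SHEP on the left and SKNAS on the right; filled points were called. In SHEP 7 of 8 Sm proteins and 8 of 9 U1, U2 and U2AF proteins lie to the right of 0 and are filled, and 9 of 11 SR proteins are open.

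PRMT5, the enzyme that methylates Sm proteins, was among the most uniform rises. Its level was 84.5, 95.3 and 112.4 TPM (lowest, median and highest) in the 28 SHEP MYC-OFF libraries and 141.7, 163.7 and 188.9 TPM in MYC-ON, so that the groups did not overlap. The log2 change was 0.76 ± 0.026 (SE; limma adjusted p = 1.36e-28), and it was higher in 28 of 28 pairs of libraries of the same series and CT. WDR77, the subunit that presents substrates to PRMT5, differed far less. Its levels were 46.9, 51.5 and 61.1 TPM in MYC-OFF and 37.1, 64.5 and 85.2 TPM in MYC-ON, where the range reached both above and below that of MYC-OFF. Its change was 0.20 ± 0.053 (SE; limma adjusted p = 0.000688), and 21 of 28 pairs were higher. Without series 1 the call of WDR77 was lost (limma adjusted p = 0.0654).

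The Sm proteins, which form the ring on U1, U2, U4 and U5 RNA, rose as a group, with 7 of 8 higher. SNRPD1 (SmD1) had 48.6, 64.2 and 79.3 TPM in MYC-OFF and 116.4, 152.4 and 196.4 TPM in MYC-ON. SNRPF (SmF) had 49.4, 53.9 and 58.9 TPM in MYC-OFF and 89.2, 116.6 and 133.3 TPM in MYC-ON. For both genes every MYC-ON library lay above every MYC-OFF library. The changes were 1.24 ± 0.046 for SNRPD1 and 1.10 ± 0.033 for SNRPF (SE; limma adjusted p = 2.68e-27 and 9.78e-31). SNRPD3, another protein of the same ring, was the member of the group that was not called, at a change of 0.00 ± 0.088 and with 17 pairs higher and 11 lower.

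Of the LSM proteins, which form the rings on U6 RNA and, in another form, on mRNA that is being degraded, 9 of 11 were higher and 1 was lower. LSM5, shared by both rings, rose from 53.6, 70.9 and 86.0 TPM to 107.4, 160.6 and 221.1 TPM, with no overlap, and its change was 1.15 ± 0.051 (SE; limma adjusted p = 2.0e-24). LSM2, also in both rings, rose from a median of 61.7 to 117.2 TPM, a change of 0.89. LSM1, which belongs to the ring that acts in mRNA decay and not to that of U6, was the one that fell. Its call did not hold under every setting tried on the full time range. At CT24 to CT36 alone it was not called (-0.13, limma adjusted p = 0.151). Its median was 78.9 TPM in MYC-OFF and 66.0 TPM in MYC-ON, with a change of -0.24 ± 0.037 (SE; limma adjusted p = 1.69e-07), and it was lower in 28 of 28 pairs, although the ranges of 69.6 to 94.5 TPM and 54.5 to 85.1 TPM overlapped. LSM11, a protein of the U7 snRNP of histone mRNA processing, changed by 0.15 at a median of 2.44 TPM in MYC-OFF, a call that rested on series 1, since LSM11 changed by 0.02 without it (limma adjusted p = 0.77). LSM12 has an expressed copy, LSM12P1, that held 32.7% of their summed TPM, so its level is uncertain.

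Among the U1 and U2 snRNP-specific proteins and U2AF, 8 of 9 were higher. SNRPA1, a protein of the U2 snRNP, had 44.7, 59.7 and 71.2 TPM in MYC-OFF and 104.3, 126.3 and 149.1 TPM in MYC-ON, again with no overlap and a change of 1.08 ± 0.037 (SE; limma adjusted p = 1.0e-28). SNRPC of the U1 snRNP rose from a median of 165.4 to 300.5 TPM, a change of 0.82 with 28 of 28 pairs higher. U2AF2, the subunit of U2AF that reads the polypyrimidine tract, changed by 0.18, with 21 of 28 pairs higher, and was not called without series 1 (0.12, limma adjusted p = 0.242).

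U2AF1, the subunit of U2AF that reads the AG of the 3′ splice site, could not be read on its own. Its level ran from 3.94 to 89.2 TPM over the MYC-OFF libraries and from 16.6 to 130.8 TPM over the MYC-ON libraries, much wider, relative to its median, than that of U2AF2. U2AF1L5, a near-identical copy listed as another gene, varied in the opposite way, and U2AF1 held between 2.67% and 71.5% of their sum in MYC-OFF. The sum of both was steadier, at 118.7, 138.5 and 157.1 TPM in MYC-OFF and 137.4, 201.2 and 271.1 TPM in MYC-ON. On the sum, an alternative added after the data had been seen, the change was 0.50 (limma adjusted p = 3.98e-12), whereas U2AF1 by itself gave 0.88 ± 0.253 (SE; adjusted p = 0.00172) and lost its call without series 2 (adjusted p = 0.0941) or with the library median as a covariate (0.0746). How the reads of the 2 copies were divided was not tested.

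**Figure D2:**
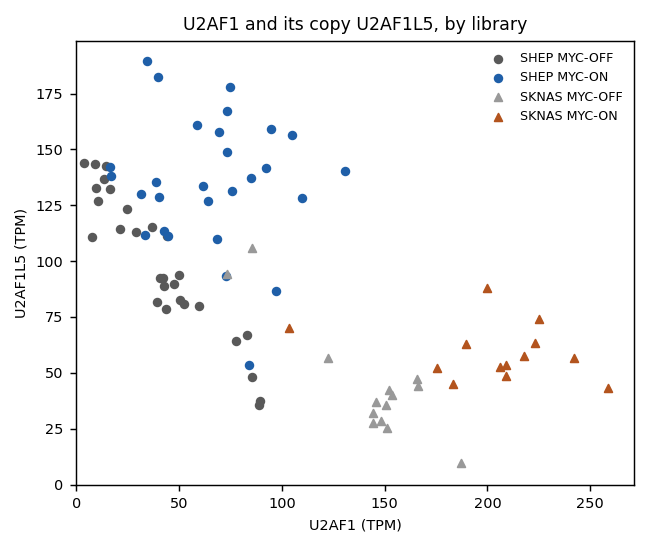
TPM of U2AF1 (x axis) against TPM of its near-identical copy U2AF1L5 (y axis), with 1 point for each of the 83 libraries and groups marked by colour and symbol. In SHEP MYC-OFF the libraries low in U2AF1 are high in U2AF1L5, and their sum stays between 118.7 and 157.1 TPM.

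SF3A and SF3B, the complexes that hold the U2 snRNP on the branch point, gave 6 higher and 1 lower of 9. SF3A3 rose from a median of 70.5 to 131.5 TPM (change 0.79, 28 of 28 pairs higher), and SF3B5 from 181.0 to 288.9 TPM (change 0.58). SF3B1, the large scaffold that is often mutated in blood cancers, stood at 116.6 and 113.2 TPM (medians), and its change was 0.01 ± 0.051 (SE; limma adjusted p = 0.862). SF3B4 was the one that fell, by 0.31 on the log2 scale, with medians of 99.3 and 86.2 TPM, and 19 of 28 pairs were lower.

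The PRPF proteins, which belong to the U4/U6.U5 tri-snRNP, the Prp19 complex and early complexes, gave 8 higher of 10. PRPF19, the ubiquitin ligase of the Prp19 complex, rose from a median of 133.6 to 228.5 TPM, by 0.74, and PRPF4 of the tri-snRNP from 40.1 to 61.0 TPM, by 0.54. PRPF18 and PRPF4B, at 0.15 and 0.12, stayed under the size threshold, and no member of this role was lower in the limma fit.

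The hnRNP proteins were split, with 12 higher, 4 lower and 5 not called of 21. HNRNPA1, the most studied of them as a repressor of exon inclusion, had 933.3, 1079 and 1224 TPM in MYC-OFF and 917.2, 1399 and 1611 TPM in MYC-ON, a change of 0.38 ± 0.041 (SE; limma adjusted p = 1.61e-11). Its groups overlapped through the MYC-ON libraries of CT76, and 27 of 28 pairs were higher. HNRNPDL (change 0.54) and HNRNPU (0.52) had the largest rises of the role. HNRNPUL2 fell by 0.64 on the log2 scale, from 17.2, 23.0 and 28.6 TPM to 9.21, 14.4 and 20.9 TPM, and was lower in 28 of 28 pairs. HNRNPA0 fell by 0.42, HNRNPUL1 by 0.39 and HNRNPLL by 0.32.

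The SR proteins differed from the snRNP proteins in that only SRSF7 (change 0.35) and SRSF11 (0.47) were called higher of 11 tested, and the median of the group was 0.00. SRSF1, which promotes exon inclusion and is itself known as an oncogene, had 169.2, 200.1 and 232.3 TPM in MYC-OFF and 108.0, 221.6 and 351.5 TPM in MYC-ON. The MYC-ON libraries spread to both sides of the MYC-OFF range, and the change of 0.07 ± 0.079 did not pass (SE; limma adjusted p = 0.397). PTBP1, which represses many neuronal exons, was higher in MYC-ON in 28 of 28 pairs (medians 247.9 and 353.5 TPM, change 0.47), while PTBP2, its neuronal relative, was at 19.2 and 18.3 TPM with a change of 0.04 (adjusted p = 0.631).

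The spread of SRSF1 in MYC-ON went with the hours since dexamethasone, which are also hours in culture and under 4OHT. A linear trend over the 52 h from CT24 to CT76 was fitted in each SHEP condition, and each value is the log2 change over that span. In MYC-OFF, only LSM2 rose (0.25) and only HNRNPH1 fell (by 0.32) of 83 members, against 4.32% of all genes rising and 7.32% falling. In MYC-ON, 63 members fell and 8 rose, against 38.7% and 21.1% of all genes, with a median of -0.49 for members and -0.12 for all genes. The trend itself differed between the conditions for 56 members. The signed MYC effect (MYC-ON minus MYC-OFF) moved down with time for 52 of them and up for 4, against 27.3% and 16.1% of all genes. In fits of the first and last 4 time points apart, described further on, 47 of the 52 started above 0, and 32 of these ended nearer to 0. The other 20 of the 52 ended below 0 and farther from it than they had started, such as HNRNPUL2 (-0.37 early and -0.95 late) and HNRNPA0 (-0.03 and -0.93).

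**Figure D3:**
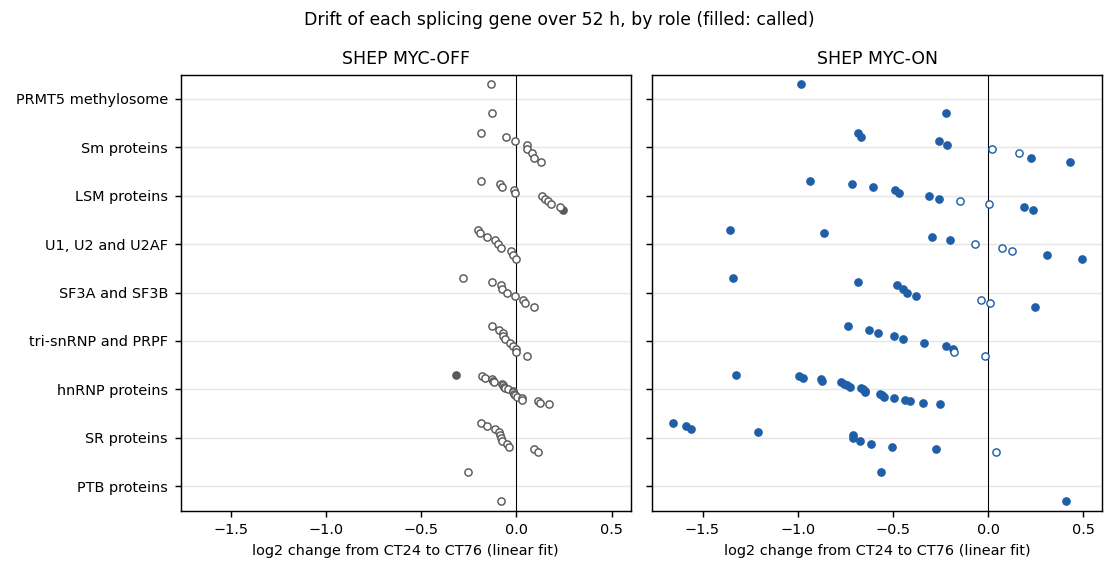
Each point is 1 splicing gene, placed by its fitted log2 change from CT24 to CT76 (x axis) and by role (y axis), in SHEP MYC-OFF (left) and MYC-ON (right); filled points were called. In MYC-OFF 2 points are filled, and in MYC-ON all 21 hnRNP proteins and 10 of 11 SR proteins are filled to the left of 0.

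The fall in MYC-ON was unequal among roles. All 21 hnRNP proteins and 10 of 11 SR proteins fell in MYC-ON, with medians of -0.66 and -0.71, whereas 4 of 8 Sm proteins and 4 of 9 U1, U2 and U2AF proteins fell and 2 of each rose, with medians of -0.10 and -0.07. The SR proteins SRSF6 (-1.66 on the log2 scale), SRSF2 (-1.59), SRSF1 (-1.56) and SRSF3 (-1.21), which bind exonic enhancers, were among the 7 largest falls, with U2AF1 (-1.36), whose level is uncertain, SF3B4 (-1.34) and HNRNPM (-1.33). The values were -0.99 for HNRNPA0, -0.98 for WDR77, -0.94 for LSM6, -0.86 for U2AF2 and -0.22 for PRMT5. The 8 that rose were SNRPA (0.49) and PRPF40B (0.31) of the U1 snRNP and its partners, SNRPN (0.43) and SNRPD2 (0.23) of the Sm proteins, PTBP2 (0.41), SF3B6 (0.25), LSM11 (0.23) and LSM2 (0.19). SF3B1, SNRPD1, SNRPA1, SNRPE, LSM5 and SRSF11 were among the 12 that were not called, at values between -0.18 and 0.16.

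Fitting the first 4 and the last 4 time points apart (8 libraries per condition each, chosen after the data had been seen) gave different sets of genes. At CT24 to CT36, 62 members were higher in MYC-ON and 3 lower, against 28.8% and 32.3% of all genes. At CT64 to CT76, 30 were higher and 20 lower, against 26.7% and 37.6% of all genes. Of the SR proteins, 8 were higher and none lower early, and 1 was higher and 9 were lower late. The hnRNP proteins went from 13 higher and 2 lower to 2 higher and 8 lower. The Sm proteins had 7 higher early and 6 late, with none lower in the limma fit at either time, and the U1, U2 and U2AF proteins 8 and 6.

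SRSF1, SRSF2, SRSF3, SRSF6, SRSF9, SRSF10, HNRNPM and WDR77 were higher early and lower late, 8 of 83 members, where 2.28% of all genes followed this course. SRSF1 in MYC-ON had 312 ± 27.2 TPM early and 133 ± 24.3 TPM late (SD, n = 8), and in MYC-OFF 211 ± 11.9 and 201 ± 15.9 TPM. Early, the MYC-ON range of 285.8 to 351.5 TPM lay wholly above the MYC-OFF range of 194.0 to 232.3 TPM. The changes were 0.56 early and -0.61 late (limma adjusted p = 1.4e-06 and 4.31e-05). SRSF6 in MYC-ON went from 113.9 ± 20.5 to 46.2 ± 7.55 TPM, and late no MYC-ON library (35.6 to 60.4 TPM) reached the MYC-OFF range (76.8 to 92.8 TPM). SRSF2 went from 417 ± 68.7 to 168 ± 26.8 TPM and SRSF3 from 474 ± 42.5 to 257 ± 63.0 TPM in MYC-ON, while their MYC-OFF means stayed at 298 and 279 TPM and at 392 and 362 TPM. HNRNPM, known to promote mesenchymal splice forms, went from 347 ± 15.6 to 174 ± 42.9 TPM, against 251 and 242 TPM in MYC-OFF.

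PRMT5 and WDR77, the partners of one complex, thus parted with time. PRMT5 in MYC-ON was at 174 ± 10.9 TPM early and 154 ± 6.64 TPM late (SD, n = 8), and in MYC-OFF at 100.8 ± 6.85 and 93.8 ± 4.75 TPM, without overlap at either time. Its MYC effect had no called change over time (-0.09, limma adjusted p = 0.292). WDR77 in MYC-ON fell from 76.3 ± 7.06 to 44.1 ± 6.86 TPM, below the 50.6 ± 2.20 TPM of late MYC-OFF, and the change over time of its MYC effect was -0.85 (adjusted p = 4.65e-08). Like PRMT5, which is 1 of them, 29 of 83 members were higher at both times. Of all genes, 28.8% were higher early and 26.7% late, and the share higher at both times was not counted. Among the 29 were SNRPD1 (142 TPM early and 161 TPM late in MYC-ON, 70.8 and 64 TPM in MYC-OFF), SNRPA1 (128 and 133 TPM, against 61.8 and 60.5 TPM), SNRPF, LSM5, PRPF19, PTBP1 and SRSF11. SF3B4 differed early by 0.05 (adjusted p = 0.376) and was lower late by 0.92 on the log2 scale, at 52.4 TPM against 98.8 TPM.

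**Figure D4:**
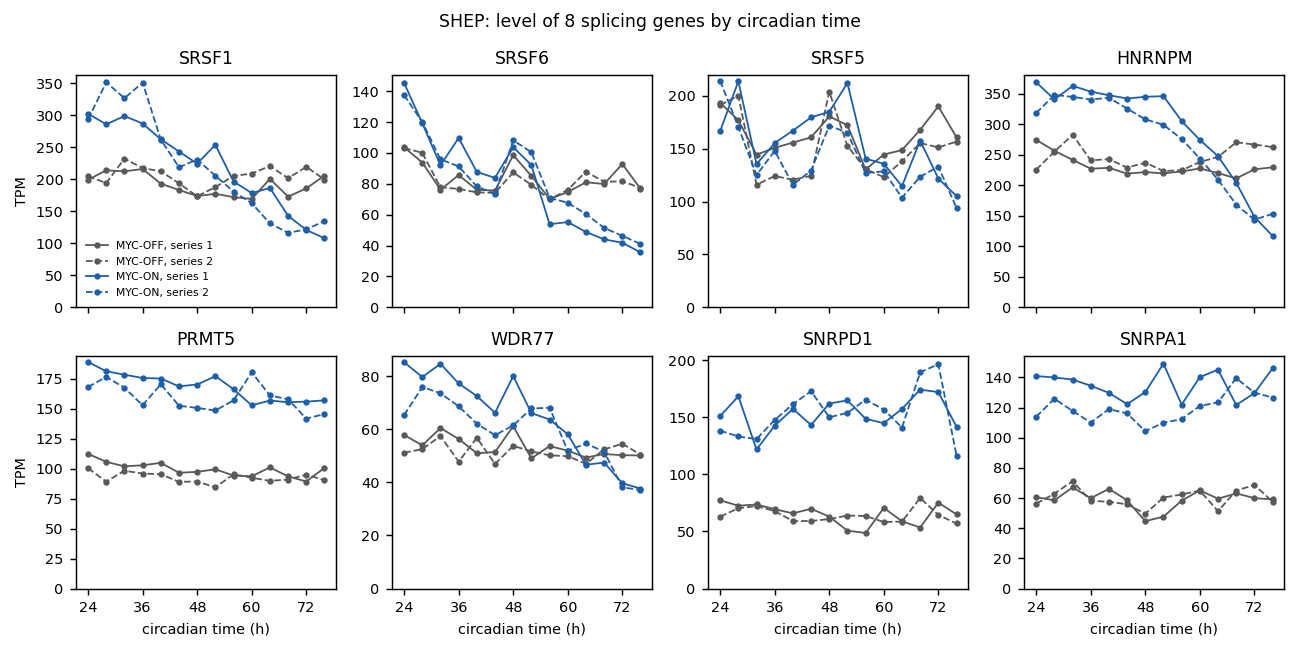
TPM (y axes, from 0) of 8 splicing genes by circadian time in hours (x axes) in SHEP, with grey lines for MYC-OFF, blue lines for MYC-ON, and solid and dashed lines for series 1 and series 2. SRSF1, SRSF6, HNRNPM and WDR77 start higher in MYC-ON and end lower, whereas PRMT5, SNRPD1 and SNRPA1 stay higher throughout.

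Other measures moved with this decline. The summed level of 20 G2M cell cycle genes went from 1243 TPM early to 797.6 TPM late in MYC-ON and from 981.7 to 1163 TPM in MYC-OFF, and 18 of the 20 fell in MYC-ON. The mean library median went from 4.08 to 3.98 in MYC-ON and from 4.12 to 4.10 in MYC-OFF. The part of either in the decline of the splicing genes was not tested. The members' summed level went from 18470 ± 615 to 14230 ± 1020 TPM in MYC-ON and from 13320 ± 503 to 13080 ± 364 TPM in MYC-OFF (SD, n = 8).

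A 24 h rhythm was called for 1 of 83 members in SHEP MYC-OFF, SRSF5, against 0.0911% of all genes (13 of 14264, limma F test of a 24 h cosine and sine). SRSF5, an SR protein first known as an insulin-induced gene of liver cells, had 193.4 and 191.2 TPM at CT24 in the 2 series and 144.4 and 115.9 TPM at CT32. It had 180.4 and 203.8 TPM at CT48 and 130.4 and 130.6 TPM at CT56, and series 1 rose once more to 190.0 TPM at CT72, where series 2 had 151.2 TPM. The amplitude was 0.24 on the log2 scale with the peak near CT24 and CT48 (limma adjusted p = 0.0248). In MYC-ON the fitted amplitude was 0.17 at the same phase (adjusted p = 0.419), and the difference between the conditions was not tested. No member was called in SHEP MYC-ON, where 8 of 83 had an unadjusted p under 0.05, as did 10.7% of all genes, and 0.0210% of all genes were called. In SKNAS MYC-OFF and MYC-ON 0% of all genes were called, and no member had an unadjusted p under 0.05, as 0.446% and 0.344% of all genes did. After rescaling of the libraries SRSF5 was not called either.

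In SKNAS, N-MYC was compared within 1 series per condition. Of 84 members, 25 were higher in MYC-ON and 5 lower, against 13.7% and 34.4% of all genes, and the median change was 0.13, against -0.29 over all genes. This split depended on how the libraries were scaled. With the median of ratios, which moved the median of all genes from -0.29 to 0.03, 55 members were higher and 2 lower, where 27.6% of all genes were higher and 23.9% lower. With the library median as a covariate the split was 52 and 2, against 28.3% and 26.1% of all genes, and within libraries with a median of at least 3.8 (10 MYC-OFF and 3 MYC-ON) it was 40 and 3, against 21.0% and 27.5%. Relative to the typical gene of the library, more splicing genes were thus higher than the TPM show. Under all 4 scalings 18 members were higher, and the share of all genes that were so was not counted.

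These 18 were SNRPD1, SNRPE, SNRPF and SNRPG of the Sm ring, LSM2, LSM5, LSM10 and LSM12, SNRPA1, SNRPC and U2AF1, PRPF3, PRPF8 and PRPF31 of the tri-snRNP, PRMT5, HNRNPA2B1, HNRNPDL and SRSF7. For U2AF1 the limit of its copy U2AF1L5 holds here too, with a mean share of their sum of 75.9% in SKNAS MYC-OFF and 77.0% in MYC-ON. All 25 members higher in SKNAS were also higher in SHEP, where 55 of 83 were. The share of all genes with this overlap was not counted. PRMT5 had 54.0, 90.8 and 109.0 TPM in MYC-OFF and 152.9, 186.3 and 263.7 TPM in MYC-ON, with no overlap and a change of 1.11 ± 0.134 (SE; limma adjusted p = 8.94e-06). SNRPA1 had 71.8, 84.0 and 111.6 TPM in MYC-OFF and 168.2, 201.4 and 248.0 TPM in MYC-ON, with a change of 1.24 ± 0.089 (adjusted p = 5.48e-08). Both genes separated the conditions whatever the median of the library. SRSF7, which also takes part in mRNA export, rose by 0.60, in 13 of 13 pairs.

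Other members moved more with the library than with the condition. SNRPD1 had a mean of 143.8 TPM in MYC-OFF libraries with a median of at least 3.8 and 327.6 TPM in the 4 others, against 221.6 and 389.9 TPM in MYC-ON. SNRPD2 went the same way (959.7 and 2891 TPM in MYC-OFF). HNRNPK, an abundant RNA-binding protein, went the opposite way, with 550.5 and 144.6 TPM in MYC-OFF and 655.8 and 242.7 TPM in MYC-ON. SF3A1 fell from 52.2 to 8.33 TPM between the kinds of MYC-OFF library and stood at 79.8 and 14.9 TPM in MYC-ON. Since 10 of 13 MYC-ON libraries but 4 of 14 MYC-OFF libraries were under 3.8, the means of such genes mix condition and library. The share of TPM from mitochondrial transcripts moved with the library too, at 1.88% to 4.80% in MYC-OFF libraries under 3.8 and 6.03% to 9.10% in the others, and at 3.37% to 8.09% and 6.53% to 8.15% in MYC-ON, and its part was not tested.

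**Figure D5:**
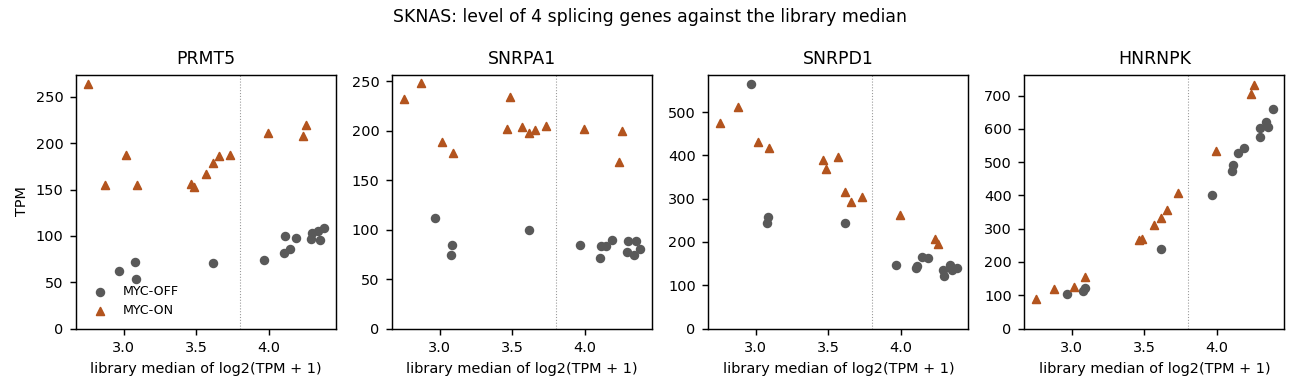
TPM (y axes, from 0) of 4 splicing genes against the library median of log2(TPM + 1) (x axes) in SKNAS, with 1 point per library (circles MYC-OFF, triangles MYC-ON) and a dotted line at 3.8. PRMT5 and SNRPA1 separate the conditions over the whole range, SNRPD1 falls and HNRNPK rises along the x axis in both conditions.

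Among the 5 members lower in SKNAS MYC-ON, PTBP2 fell by 0.73 on the log2 scale (medians 8.72 and 4.26 TPM), SRSF12 by 0.77 (5.49 and 2.61 TPM), LSM11 by 0.47 (3.19 and 1.61 TPM), HNRNPH2 by 0.45 (80.9 and 57.6 TPM) and SRSF8 by 0.27 (23.6 and 20.5 TPM). None of them was lower under all 4 scalings, and SRSF8 changed by 0.09 after rescaling. LSM11 was the member called in opposite directions in the 2 lines, each time a call that did not hold under every setting (without series 1 in SHEP, and at -0.21 after rescaling in SKNAS, limma adjusted p = 0.0679). Over time, no member was called in SKNAS (0.151% of all genes in MYC-OFF and 0.166% in MYC-ON were called in either direction in limma), while 34 members in MYC-OFF and 4 in MYC-ON had an unadjusted p under 0.05, as did 35.5% and 7.28% of all genes. The course seen in SHEP could not be compared with that of SKNAS on this basis, and the difference was not tested.

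The difference of the MYC effect between the lines was tested over all 83 libraries. The fit took 1 spread for both lines. For PRMT5 its SE of 0.085 was below the SE of 0.134 in the fit of SKNAS alone. Its p-values can therefore be too small for genes that varied more in SKNAS. The signed effect (MYC-ON minus MYC-OFF) was higher in SKNAS for 3 members and lower for 27, against 13.5% and 38.0% of all genes. After rescaling the split was 20 and 9, against 25.1% of all genes in each direction. With the library median as a covariate it was 17 and 19, against 24.8% and 22.1%, and within libraries of at least 3.8 it was 9 and 15, against 16.6% and 18.9%. In each fit the members were thus near or below the share of all genes in both directions. Under all 4 scalings, the signed effect was higher in SKNAS for PRMT5 (0.35 ± 0.085, SE; limma adjusted p = 0.000571). It was lower for HNRNPA1 (-0.54), PRPF19 (-0.61), LSM11 (-0.62) and SRSF12 (-0.80). For the last 2 the change in SKNAS was not smaller in size. LSM11 changed by -0.47 in SKNAS and 0.15 in SHEP, and SRSF12 changed by -0.77 in SKNAS and was near 0 TPM in SHEP. HNRNPA1 was lower in 9 of 13 SKNAS pairs (change -0.16, adjusted p = 0.295) and PRPF19 changed by 0.13 there, whereas both rose in SHEP. The largest values were those of SF3A1 (-0.91) and SRSF11 (-0.83), but within libraries of at least 3.8 they were at 0.22 and -0.05. LSM7 (0.49) was at -0.29 within them, and SRSF7 had 0.25.

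The lines also differed without active N-MYC. In MYC-OFF, 38 members were higher in SKNAS than in SHEP and 15 lower, against 34.3% and 45.2% of all genes. With the library median as a covariate the split was 56 and 7, against 44.4% and 38.2%. The 38 were higher under all 4 scalings and included 7 of 8 Sm proteins and 7 of 11 LSM proteins. SNRPE (SmE) had a median of 158.8 TPM in SHEP and 462.4 TPM in SKNAS, a log2 difference of 1.74, SNRPD1 one of 1.45, LSM5 1.39 and LSM8 1.24, and SRSF12 was near 0 in SHEP (median 0.01 TPM) and at 5.49 TPM in SKNAS. PTBP2 (-1.16), SF3A1 (-1.61) and HNRNPD (-0.65) were lower in SKNAS under all 4 scalings, and with SF3B5, SF3B2, SRSF3 and HNRNPA1L2 they made up 7 such members. For U2AF1 the difference was 2.11, but on its sum with U2AF1L5 it was 0.42.

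In MYC-ON, 28 members were higher in SKNAS and 35 lower, against 28% and 56.8% of all genes, and after rescaling 53 were higher and 9 lower, against 41.4% and 43.8%. Under all 4 scalings 19 were higher, led by SNRPE (1.83), SNRPD2 (1.63) and LSM8 (1.27) beside SRSF12 and U2AF1. HNRNPD, PTBP2 and SF3A1 were again lower under all 4. The ratio of PTBP1 to PTBP2, which changes in neuronal differentiation, was 13.3 ± 2.04 without and 18.4 ± 5.01 with active N-MYC in SHEP (SD, n = 28), and 25.8 ± 9.82 (n = 14) and 53.7 ± 15.1 (n = 13) in SKNAS. The 2 SKNAS groups overlapped between 37.1 and 46.7.

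Genes of the same pathway outside the members were read from lists chosen with earlier results of these data known, beside 33.0% of all genes higher and 38.9% lower in SHEP. In SHEP MYC-ON, 20 of 26 other U snRNP and tri-snRNP proteins were higher and 2 lower, led by SNU13 (1.23), which binds U4 RNA, and TXNL4A (1.16), while CD2BP2 (-0.74) and DDX23 (-0.34) were lower. Of 16 genes of snRNP assembly and methylation, 14 were higher and none lower in limma, among them RIOK1 (0.75), a substrate adaptor of PRMT5, and GEMIN5 (0.61), which recognises snRNA for the SMN complex. The Prp19 complex and catalytic steps gave 14 higher and 4 lower of 31 (CWC27 0.60 and PPIE 0.56, TFIP11 -0.41 and DHX8 -0.36). The exon junction complex gave 6 higher of 9 (EIF4A3 and PNN, both 0.76) and the minor spliceosome 4 higher and 1 lower of 9 (ZCRB1 0.45, SNRNP35 -0.17). Of the kinases and the phosphatase that act on SR proteins, 2 of 8 were higher (SRPK1 0.74 and CLK3 0.42) and 3 lower (PPP1CA -0.59 and CLK4 -0.44 most). Of 49 other splicing regulators 17 were higher (RBM38 0.90 and RBFOX3 0.72) and 12 lower (SRRM3 -0.94 and CIRBP -0.76), close to the share of all genes for the higher ones, and of 7 other arginine methyltransferases 5 were higher (PRMT7 0.75 and PRMT3 0.60) and PRMT2 was lower (-0.78).

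In SKNAS the same lists gave 9 higher and 1 lower of 26 U snRNP and tri-snRNP proteins, 7 higher of 16 assembly genes, 5 higher and 2 lower of 31 Prp19 and catalytic proteins, 5 higher of 9 exon junction proteins and 4 higher and 8 lower of 48 other regulators, beside 13.7% of all genes higher and 34.4% lower. Of the SR protein kinases and the phosphatase 4 of 8 were lower and the rest not called, the minor spliceosome had 2 higher of 9, and the arginine methyltransferases had 2 higher and 3 lower of 7. Over time in SHEP MYC-ON, where 38.7% of all genes fell and 21.1% rose, 20 of the 26 U snRNP and tri-snRNP proteins fell and 2 rose, and 33 of the 49 other regulators fell and 3 rose, while 11 of the 31 Prp19 and catalytic proteins fell and 7 rose, shares near those of all genes.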

How the data were processed

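Polyadenylated RNA of 83 libraries was sequenced. The authors quantified reads with Salmon 1.3.0 on Gencode transcripts (GRCh38) and summed them to genes with Tximport. The deposited values are TPM, per transcript length and per library total, with no counts, so no counting error can be given. The count model used by the study was therefore replaced by limma 3.58.1 (R 4.3.3) on log2(TPM + 1), which understates changes of low genes. Groups came from the sample titles.

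Genes with a mean of at least 1 TPM were tested per line, with CT as a factor (limma, Benjamini-Hochberg over all genes). Calls needed an adjusted p up to 0.05 together with a change of 0.15 or more (log2). Differences of the MYC effect between lines used all 83 libraries, with 1 spread taken for both lines. Trends were linear in CT, and rhythms were F tests of 24 h terms. Members and lists were chosen with earlier results of these data known. Genes named were PRMT5, WDR77, PTBP1, PTBP2, U2AF1, U2AF2, SRSF1, HNRNPA1 and SF3B1, the 2 largest called changes each way per role and comparison, members called in opposite directions, and the 3 largest differences between lines each way. Names outside this rule were chosen after their values were seen. For members called under all 4 scalings the share of all genes was not counted. Promoters came from RefSeq (GRCh38.p14), and 10 members had no window. No protein sequence was used. Alternatives were another pseudocount (0.1), no filter or a filter of 5 TPM, rescaling by median of ratios, the library median as a covariate, libraries with a median of at least 3.8, each series left out, CT left out, a replicate block and series means. The fits were tested on simulated data. A further line and the other SKNAS series were not analysed here. Some items are not reported here.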

Additional observations from a re-analysis of the deposited data

Results flagged for a closer look

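The signed MYC effect in SHEP (MYC-ON minus MYC-OFF) moved down from CT24 to CT76 for 52 members and up for 4 (limma, adjusted over all genes), which marks a difference between time points under 1 contrast. For 20 of the 52 it was below 0 late and farther from 0 than early. The steepest moves down were those of SRSF2 (-1.51), SRSF1 (-1.47) and SRSF6 (-1.47), as log2 change of the MYC effect over 52 h.

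Between the lines, the MYC effect in SKNAS minus that in SHEP, tested as an interaction, was -0.91 for SF3A1, -0.83 for SRSF11, -0.80 for SRSF12, -0.62 for LSM11, 0.35 for PRMT5 and 0.49 for LSM7 on the log2 scale. SRSF12 was close to 0 TPM in SHEP, so its value is that of SKNAS alone. PRMT5, SRSF12 and LSM11 kept their call under all 4 scalings, in fits that took 1 spread for both lines, so their p-values can be too small. Within SKNAS libraries with a median of at least 3.8, SF3A1, SRSF11 and LSM7 were not called.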

How the results depend on the processing

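Depth is unknown, so low genes carry an unknown error. In SHEP, 30 members were higher and 20 lower at CT64 to CT76, and 3 were lower at CT24 to CT36. In SKNAS, rescaling gave 55 higher and 2 lower, the covariate 52 and 2, libraries of at least 3.8 gave 40 and 3, and a filter of 5 TPM gave 3 lower. For the difference between lines, rescaling gave 20 above and 9 below, the covariate 17 above, libraries of at least 3.8 gave 9 and 15, and leaving out a SHEP series gave 1 to 3 above and 12 to 14 below. For SKNAS against SHEP, 7 (covariate) and 8 (at least 3.8) were lower in MYC-OFF; in MYC-ON 53 (rescaled) and 43 (covariate) were higher, and 9, 6 and 7 (rescaled, covariate, at least 3.8) lower. The MYC-OFF trend, with 1 call each way, gave 0 to 2 higher and 0 to 6 lower without 1 series, 0 and 0 for the last against the first 4 CTs, 0 lower when rescaled or with the covariate, and 3 lower without CT76. The MYC-ON trend gave 5 to 6 higher without 1 series. SRSF5 was lost when rescaled, leaving 0 rhythmic members.

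Among the genes named by the rule for each comparison, directions turned in SHEP for PTBP2 (-0.24) and SF3B4 (0.051) early and SRSF1 (-0.61), U2AF2 (-0.19) and WDR77 (-0.21) late. In SKNAS they turned for SRSF8 (0.090) and WDR77 (0.31) when rescaled, U2AF2 (0.66) with the covariate and SF3B1 (0.35) in libraries of at least 3.8. For the difference between lines they turned for SNRPB2 (0.014) and WDR77 (0.015) when rescaled, PRPF38B (0.063), PTBP1 (0.22) and U2AF2 (0.36) with the covariate, and LSM7 (-0.29), PRPF38B (0.17), SF3A1 (0.22) and SF3B1 (0.34) in libraries of at least 3.8. LSM11 ranged from -0.076 to 0.54 in the MYC-ON trend, turning without series 1. Outside the named genes, 10 more members turned late in SHEP, HNRNPM (-0.50) and SRSF2 (-0.74) among them, 3 early and 1 with the covariate, 3 to 9 turned in SKNAS and 5 to 10 between the lines with the scaling, and 1 in the MYC-ON trend without either series. Sign changes where neither value passed were not counted, and the cause was not tested. The early and late windows, CT76 left out, the covariate in the trends and the summed copies were chosen after seeing the data.

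With the series as a replicate block, 55 and 6 members were called in SHEP and 4 and 28 between the lines. The deviations of the same series in MYC-OFF and MYC-ON correlated at 0.489 across 14362 genes, which are not independent replicates, and with only 2 numbers the pairing is a shared label.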
